A study of Mus musculus with 12 samples.

Results

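The brain endothelium and barrier transport genes are 34 genes listed by symbol: junction proteins, barrier transporters with the transferrin receptor gene Tfrc, receptors of endothelial growth signalling, transcription factors, and surface or secreted markers of endothelial cells. All 34 symbols mapped to a gene ID of the count table, so the group makes up 34 of 55401 IDs, and all 34 were among the 21958 genes that passed the filter on low counts. The rule names genes by symbol and uses no measured value, but the list was chosen with earlier results of these data known. RNA of the medial prefrontal cortex of male mice was sequenced in bulk, at a time labelled as 2 weeks of extinction in conditioned place preference, a procedure in which a preference for a drug-paired place is learned and then lost.

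Each of 3 groups had 4 libraries. The knockdown morphine group received an AAV labelled 5-HT6Rkd and morphine, the scramble morphine group received an AAV with a scramble sequence and morphine, and the scramble saline group received the scramble AAV and saline. Every group therefore carried an AAV, and a group with the knockdown and saline was not part of the 12 libraries. The labels give neither the promoter nor the cell type that the AAV acts in, neither the age nor the strain of the mice, and do not say that libraries came from separate animals, so the p-values measure the spread between these libraries, which may be technical in part. Totals ran from 41483220 to 65739423 counts, and the member with the fewest counts in a library, Emcn, still had 126 there. The targeted gene Htr6 stood at a log2 fold change of -0.13 (SE 0.18) between knockdown and scramble with morphine, with an edgeR adjusted p = 0.823. Its level therefore does not check the knockdown label. All 8 markers of cortex listed for the tissue passed the filter, with summed levels between 2068 and 2573 CPM (counts in proportion to the library total) over the 12 libraries.

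Endothelial cells of the brain are joined by tight and adherens junctions and carry transporters that let glucose, amino acids, lipids and hormones into the tissue and pump drugs and other compounds back into the blood. Wnt ligands from neural cells induce this barrier state, VEGF and angiopoietin receptors keep the vessels stable, and ETS and SOX factors hold endothelial identity. Tfrc, which takes up iron bound to transferrin, is rich in brain capillaries and is also made by neurons. Its mRNA is held stable by iron regulatory proteins, which bind hairpins called iron-responsive elements after the stop codon when iron is scarce.

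Those hairpins are shown because Tfrc had the smallest p of the 34 genes in both comparisons with saline. A search of the longest coding transcript of 21877 genes for a CAGTGN loop (last base A, C or T) closed by 5 paired bases on each side, G to T pairs allowed, and with a C 6 bases before the loop, found 4 matches in Tfrc, all after its stop codon. The search covered the transcript strand only. At least 1 match occurred in 204 genes, or 0.93% of those searched, and Tfrc was the only gene with 3 or more. No other of the 34 genes held one, while Fth1, Ftl1 and Slc40a1 did among the 20 listed genes of iron handling. The matches lie on the plus strand of chromosome 16 in mm10, at chr16:32631219-32631248, chr16:32631598-32631627, chr16:32631663-32631692 and chr16:32631710-32631739, and the capitals mark the loop.
Tfrc element 1: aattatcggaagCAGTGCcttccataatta
Tfrc element 2: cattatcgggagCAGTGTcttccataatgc
Tfrc element 3: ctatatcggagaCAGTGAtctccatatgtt
Tfrc element 4: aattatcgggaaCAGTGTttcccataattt

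Promoters were available for 23 of the 34 genes, as 35 windows from 250 bases before to 50 after a RefSeq start site (build GRCm38.p6). The word AGGAAG or its reverse complement CTTCCT, a form of the core bound by ETS factors such as Erg, was in 21 of the 35 windows (60.0%), against 35.4% of all 32851 mouse windows of the same length. The other form, CGGAAG or CTTCCG, was in 8.6% of the windows of the group and in 16.9% of all. An Sp1 box (GGGCGG or CCGCCC) was in 42.9% against 35.7%, TATAAA or TTTATA in 22.9% against 13.6%, and AACAAT or ATTGTT, a word that SOX factors can bind, in 11.4% against 10.7%. AGGAAG was added to the search after CGGAAG had been found rare, and no test was made of these shares. A match is only a match of letters and not a bound site. The windows of Flt1 (chr5:147725962-147726261, minus strand), Tie1 (chr4:118489800-118490099, minus strand) and Slco1c1 (chr6:141524104-141524403, plus strand) are printed as examples of windows with an ETS word. Flt1 and Tie1 lay on the side of the other genes in every library, as described below, and Slco1c1 is one of the genes that separated knockdown morphine from scramble morphine without overlap. Of the others of these, the window of Slc2a1 holds no such word and that of Adgrl4 holds 1, which starts 10 bases before the start site. No window was available for Podxl or Vwf. The window of Tek, which lay on the side of the other genes in 11 of 12 libraries, holds no ETS word. Those of Itm2a and Cd34, on that side in 5 libraries, hold 2 and 1. Capitals mark the ETS words, which start at 129 and 53 bases before the Flt1 start site, at 128 bases before that of Slco1c1, and at 232 and 219 bases before and 33 bases after that of Tie1.
Flt1 promoter: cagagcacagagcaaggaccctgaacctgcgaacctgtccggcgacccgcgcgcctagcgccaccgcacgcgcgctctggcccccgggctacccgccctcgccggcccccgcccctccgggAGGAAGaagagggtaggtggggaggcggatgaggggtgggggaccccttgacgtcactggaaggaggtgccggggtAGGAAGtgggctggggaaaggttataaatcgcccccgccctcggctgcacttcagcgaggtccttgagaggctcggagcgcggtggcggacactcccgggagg
Tie1 promoter: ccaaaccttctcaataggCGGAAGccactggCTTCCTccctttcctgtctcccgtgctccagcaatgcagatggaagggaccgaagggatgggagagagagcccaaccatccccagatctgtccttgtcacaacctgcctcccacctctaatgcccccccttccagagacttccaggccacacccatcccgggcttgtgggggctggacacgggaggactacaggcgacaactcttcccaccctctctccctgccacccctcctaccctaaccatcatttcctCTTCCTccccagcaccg
Slco1c1 promoter: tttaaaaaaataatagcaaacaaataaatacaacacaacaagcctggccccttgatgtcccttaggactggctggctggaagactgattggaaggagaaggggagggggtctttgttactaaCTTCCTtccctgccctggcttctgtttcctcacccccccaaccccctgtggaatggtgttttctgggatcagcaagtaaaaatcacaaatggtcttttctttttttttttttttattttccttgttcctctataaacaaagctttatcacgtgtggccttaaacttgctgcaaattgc

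Levels are given as CPM, a gene's counts in proportion to the library total after scaling by TMM (trimmed mean of M-values), and between genes only as CPM per kilobase of exon. On the second scale, averaged over the 12 libraries, Slc2a1 was highest at 27.9 CPM per kb, followed by Slc7a5 at 25.6, Itm2a at 24.7, Cldn5 at 24.6, Ly6c1 at 19.3 and Tfrc at 13.0. Lef1 was lowest at 0.599, below Emcn at 0.760 and Kdr at 1.36 CPM per kb. By role, the 8 barrier transporters ran from 2.75 (Abcg2) to 27.9 CPM per kb (Slc2a1), the 5 junction genes from 1.81 (Ocln) to 24.6 (Cldn5), the 9 receptors and their phosphatase from 1.36 (Kdr) to 5.96 (Eng), and the 4 transcription factors from 0.599 (Lef1) to 3.92 (Sox18). The 8 surface, secreted and other markers ran from 0.760 (Emcn) to 24.7 CPM per kb (Itm2a). Tfrc, Slc7a5 and Cd34 are also made by cells other than endothelium, and in bulk tissue fewer cells of a type and less RNA per cell cannot be told apart.

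Libraries are named below by the replicate numbers in their titles, which are 1, 2, 3 and 5 for knockdown morphine, 1, 3, 4 and 5 for scramble morphine and 2, 3, 4 and 5 for scramble saline, and values are listed in that order. Each gene's log2 CPM was set against its own mean over the 12 libraries. The median of this deviation over the 34 genes was 0.30, -0.11, 0.18 and 0.01 in the knockdown morphine libraries, -0.01, -0.06, -0.23 and -0.04 in the scramble morphine libraries, and -0.01, 0.20, -0.18 and 0.02 in the scramble saline libraries. In knockdown morphine and in scramble saline these medians ran from below to above 0, while all 4 in scramble morphine lay below it. Knockdown morphine replicate 1 held the highest of 12 values for 16 genes, and knockdown morphine replicate 3 and scramble saline replicate 3 for 6 each. Scramble morphine replicate 4 held the lowest value for 12 genes and scramble saline replicate 4 for 10. In scramble morphine replicate 4 only 3 of the 34 genes lay above their own mean, and in scramble saline replicate 3, 30 did. Differences between libraries were measured as the chi-square statistic of their raw counts given the library totals, averaged over genes without those of very few counts. This measure grows with depth. It also kept a ribosomal RNA locus, CT010467.1, which took 2.38 to 9.38% of counts. The part of that locus in the values below was not tested, so they are not a likeness that weighs all genes alike. Knockdown morphine replicate 3 and scramble saline replicate 4 were nearest to each other, at 28.1, while neither was nearer than 36.5 to a library of its own group. Knockdown morphine replicate 5 was nearest to scramble saline replicate 5, at 20.94, against 47.3 or more to its own group. Scramble saline replicate 5 was itself nearer to saline replicates 2 and 3, at 19.21 and 20.82. The first pair, already doubted in an earlier analysis of these data, was also left out together. Without both, the median log2 fold change of the 34 genes was -0.17 between scramble morphine and scramble saline, 0.20 between knockdown morphine and scramble morphine and 0.01 between knockdown morphine and scramble saline, against -0.12, 0.20 and 0.11 with all libraries.

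**Figure D1:**
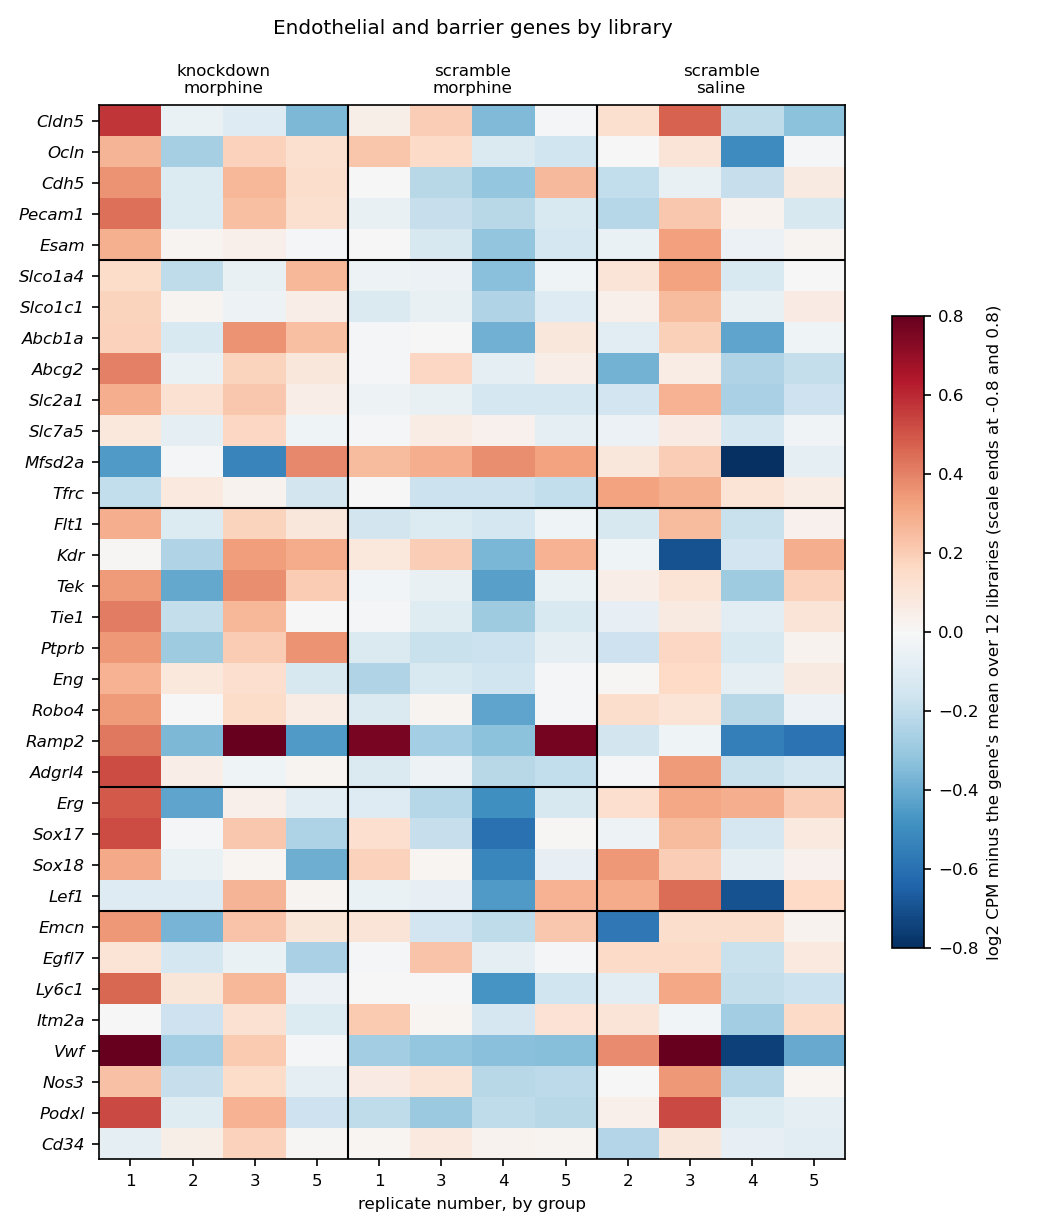
Heat map of the log2 CPM of each of the 34 genes minus the gene's mean over the 12 libraries, with genes in rows by role and libraries in columns by group and replicate number. Knockdown morphine replicate 1 and scramble saline replicate 3 are mostly red (29 and 30 of 34 genes above their own mean), and scramble morphine replicate 4 and scramble saline replicate 4 mostly blue (3 and 4 genes above).

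Flt1 (VEGF receptor 1), Tie1 (an orphan partner of the angiopoietin receptor) and Ptprb (the endothelial phosphatase VE-PTP) lay on the same side of their mean as the median of the other 33 genes in all 12 libraries, and Tek, the angiopoietin receptor, in 11. Mfsd2a, the carrier of lysophospholipid forms of omega-3 fatty acids, did so in 4 libraries, Itm2a and Cd34 in 5, Cldn5 in 6, and Tfrc and Ramp2 in 7. The deviations of all 34 genes share the scaling of their library and are a description, not a test. Within a group, the median coefficient of variation over the 34 genes was 14.8% in knockdown morphine, 9.6% in scramble morphine and 13.5% in scramble saline libraries. Vwf, the clotting factor von Willebrand factor, which large vessels make more than capillaries, had the widest range in CPM, 84.3, 33.6, 46.9 and 40.2 CPM in knockdown morphine, 33.5, 32.7, 32.2 and 32.1 CPM in scramble morphine and 52.6, 84.6, 24.1 and 30.7 CPM in scramble saline libraries. Knockdown morphine replicate 1 and scramble saline replicate 3 stood at almost the same high level, and the scramble morphine libraries lay close together.

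The comparison of scramble morphine with scramble saline asks how the genes stood after morphine, place preference and extinction, without the knockdown. Most of the 34 genes stood slightly lower in scramble morphine, and Tfrc stood lower by the most relative to its spread. Of the 34 genes, 23 stood below 0, against 50.5% of all tested genes, and 11 above 0, against 49.5%. The log2 fold changes had a median of -0.12 over the 34 genes and of -0.0012 over all tested genes. By the edgeR quasi-likelihood test, 0 of the 34 were called at an adjusted p under 0.05, and 0% of all tested genes. At an unadjusted p under 0.05, 4 of the 34 (11.8%) were lower, Tfrc, Erg, Slco1c1 and Podxl, against 1.82% of all genes, and 0 were higher, against 1.67%, so that 3.48% of all genes passed in either direction. DESeq2 called 4 genes of the whole table after adjustment and limma voom 0, in both cases with 0 of the 34. The median was -0.02 without scramble saline replicate 3 and -0.05 without scramble morphine replicate 4, and lay between -0.17 and -0.11 without any other single library. Without scramble saline replicate 3, 3 of the 34 were higher and 2 lower at an unadjusted p under 0.05. In that fit 2.92% of all genes passed in either direction.

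Tfrc (ENSMUSG00000022797, chr16:32608920-32632794, plus strand in mm10, as all positions of genes here), whose hairpins are shown above, had 79.8, 70.98, 70.8 and 69.9 CPM in the scramble morphine libraries, against 99.7, 97.5, 86.2 and 83.2 CPM in the scramble saline libraries. Every morphine library lay below every saline library. On the log2 scale the difference was -0.33 (SE 0.08), a fold of 0.795 (95% interval 0.707 to 0.894), with an edgeR unadjusted p = 0.000837 and an adjusted p = 0.999. By p, Tfrc was number 9 of all 21958 genes, the best rank of the 34. Leaving out each library in turn moved the log2 fold change only between -0.38 and -0.29, and it ran between -0.39 and -0.29 under the other settings.

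Of 20 tested genes of iron uptake, storage and regulation, 12 stood above 0 and 8 below. Their log2 fold changes had a median of 0.03 and ran from -0.19 to 0.36, and 1 had an unadjusted p under 0.05. That gene was Slc11a2, the iron importer DMT1, with a log2 fold change of -0.19 (SE 0.07, edgeR unadjusted p = 0.00957, adjusted p = 0.999). Of the other genes of barrier transport, 14 of 26 stood above 0, with a median of 0.01 and a range from -0.95 to 0.33, and 1 was higher and 2 were lower at an unadjusted p under 0.05. Lrp8, a lipoprotein receptor, had the smallest p among them at -0.19 (SE 0.06, unadjusted p = 0.00742).

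Among the members that carry solutes, the 8 transporters were split evenly, with 4 above and 4 below 0. Slco1c1 (OATP14, the thyroid hormone carrier, ENSMUSG00000030235, chr6:141524368-141570177, plus strand) had 37.1, 38.6, 33.98 and 37.3 CPM in the scramble morphine libraries, against 41.2, 47.9, 38.5 and 42.02 CPM in the scramble saline libraries, and the groups overlapped only at scramble morphine replicate 3 and scramble saline replicate 4, both near 38.5 CPM. This gave a log2 fold change of -0.21 (SE 0.08, edgeR unadjusted p = 0.0164, adjusted p = 0.999). Slco1a4 (OATP2, a carrier of organic anions), which lies near it on chromosome 6, had 52.9, 52.5, 43.2 and 53.1 CPM in the scramble morphine libraries, against 58.3, 67.9, 49.99 and 54.2 CPM in the scramble saline libraries. Replicate 4 was the low value of the morphine group. The log2 fold change of Slco1a4 was -0.19 (SE 0.11, edgeR adjusted p = 0.999), and the groups overlapped. This value was -0.10 without scramble saline replicate 3 and -0.12 without scramble morphine replicate 4, and with the ribosomal RNA covariate described below Slco1c1 stood at -0.13.

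Slc2a1 (GLUT1, which brings glucose across the barrier, ENSMUSG00000028645, chr4:119108711-119137983, plus strand) had 94.6, 93.1, 88.3 and 88.1 CPM in the scramble morphine libraries, against 87.4, 118, 81.2 and 86.8 CPM in the scramble saline libraries. Scramble saline replicate 3 stood alone at the top, and the other 3 saline libraries lay below all morphine libraries. The fitted log2 difference was -0.04 (SE 0.10, edgeR adjusted p = 0.999) and it was 0.10 without that library. Abcg2 (the efflux pump BCRP, ENSMUSG00000029802, chr6:58584523-58695676, plus strand) had 22.02, 24.9, 21.1 and 23.01 CPM in the scramble morphine libraries, against 17.1, 23.1, 18.8 and 19.5 CPM in the scramble saline libraries, a log2 fold change of 0.21 (SE 0.11, edgeR unadjusted p = 0.0706, adjusted p = 0.999). It was the member above 0 with the smallest p.

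Of the junction genes, Cldn5, the main claudin of brain capillaries, had 35.3, 39.1, 26.7 and 33.9 CPM in the scramble morphine libraries, against 37.3, 47.4, 29.7 and 27.2 CPM in the scramble saline libraries. The groups overlapped widely, and the log2 fold change of -0.07 (SE 0.21, edgeR adjusted p = 0.999) turned to 0.11 without scramble saline replicate 3 and to 0.03 without scramble morphine replicate 4. Esam, an adhesion molecule of endothelial junctions, had 14.98, 13.8, 12.04 and 13.6 CPM in the scramble morphine libraries, against 14.4, 18.9, 14.5 and 15.2 CPM in the scramble saline libraries. The fold change on the log2 scale was -0.21 (SE 0.11, edgeR unadjusted p = 0.0735, adjusted p = 0.999), with replicate 1 of the morphine group inside the saline range. It was -0.11 without scramble saline replicate 3 and -0.12 with the ribosomal RNA covariate.

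The 4 transcription factors all stood below 0. Erg, the ETS factor that maintains endothelial identity (ENSMUSG00000040732, chr16:95359169-95586593, minus strand), had 6.25, 5.73, 4.77 and 6.12 CPM in the scramble morphine libraries, against 7.37, 8.32, 8.21 and 7.67 CPM in the scramble saline libraries, with no overlap. The fit put the log2 fold change at -0.46 (SE 0.17), a fold of 0.725 (95% interval 0.565 to 0.9301), with an edgeR unadjusted p = 0.0148 and an adjusted p = 0.999. Podxl, a sialomucin of the luminal surface (ENSMUSG00000025608, chr6:31519488-31563981, minus strand), had 48.5, 45.3, 48.5 and 47.7 CPM in the scramble morphine libraries, against 57.2, 80.4, 51.6 and 52.7 CPM in the scramble saline libraries. The groups did not overlap, yet scramble saline replicate 3 was far above the other saline libraries. In the edgeR fit the log2 difference came to -0.35 (SE 0.16, edgeR unadjusted p = 0.0488, adjusted p = 0.999) and -0.18 without that library, or -0.22 with the ribosomal RNA covariate.

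**Figure D2:**
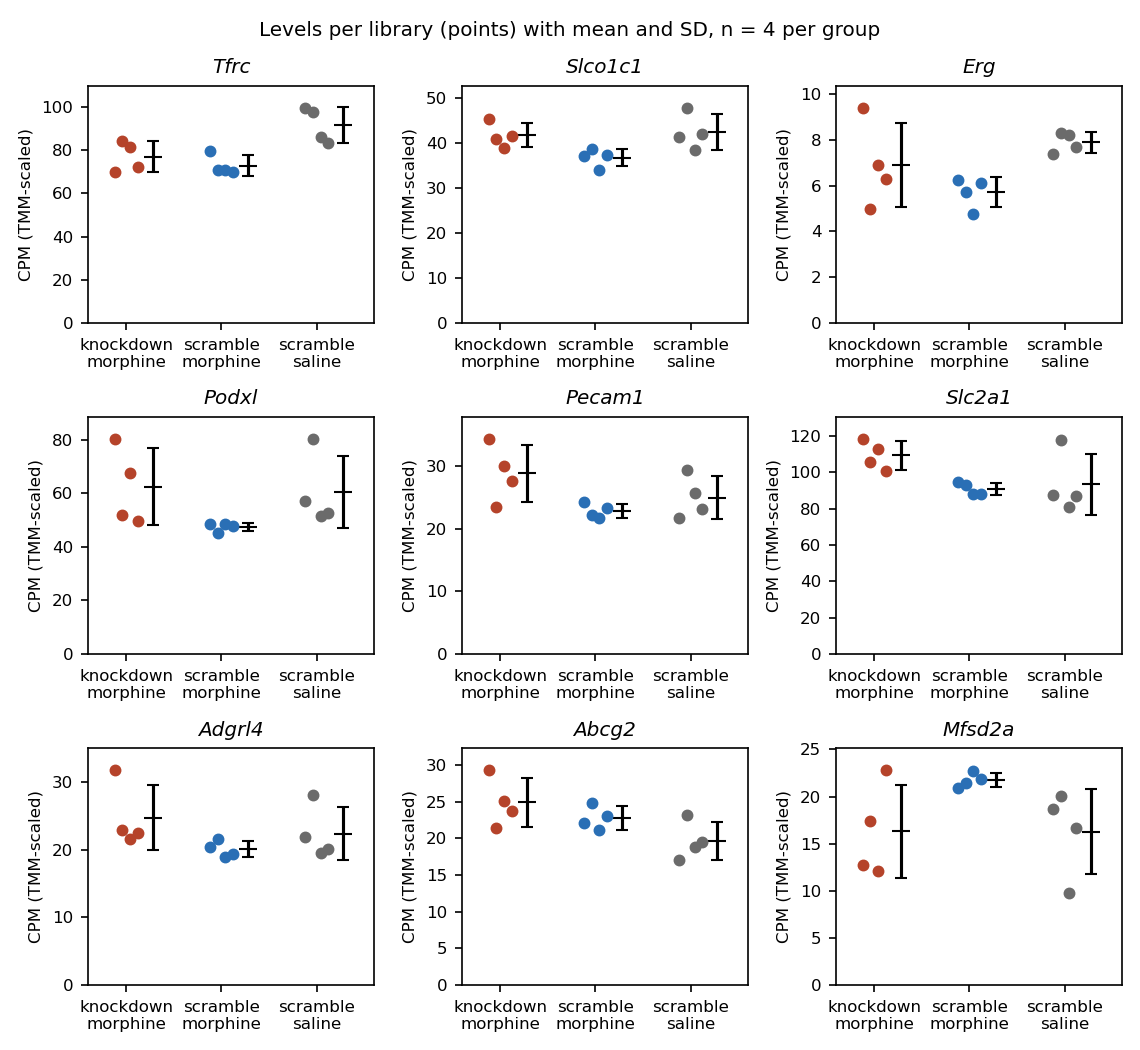
CPM of 9 of the genes in each library (points, left to right by replicate number) with the mean and SD of each group (n = 4), on axes that start at 0. Tfrc and Erg lie lower in all 4 scramble morphine libraries than in all 4 scramble saline libraries, Slco1c1, Podxl, Slc2a1 and Adgrl4 lie higher in all 4 knockdown morphine libraries than in all 4 scramble morphine libraries, and Mfsd2a holds a narrow range only in scramble morphine.

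In all, 3 of the 34 genes (8.82%) lay lower in every scramble morphine library than in every scramble saline library, Erg, Podxl and Tfrc, against 1.77% of all genes, and 1 (2.94%) lay higher, against 1.55%. The one that lay higher, named here after its values were seen, was Mfsd2a at 20.9, 21.5, 22.7 and 21.9 CPM in the scramble morphine libraries, against 18.6, 20.04, 9.81 and 16.6 CPM in the scramble saline libraries. Scramble saline replicate 4 was the lowest of all 12 libraries.

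Of 35 tested endothelial genes outside the group, 15 stood above 0, with a median of -0.02 and a range from -0.53 to 0.49. The smallest p belonged to Foxc1, a forkhead factor, at 0.45 (SE 0.21, edgeR unadjusted p = 0.0461, adjusted p = 0.999). Genes of vesicles, adhesion and endothelial activation had 4 of 17 above 0 and a median of -0.17, with Ch25h, an oxysterol hydroxylase, at -1.07 (SE 0.40, unadjusted p = 0.0185). Partners of the VEGF and angiopoietin receptors had 19 of 28 above 0 and a median of 0.03, with the ligand Apln at 0.30 (SE 0.17, unadjusted p = 0.0922). Wnt genes that induce the barrier had 15 of 22 above 0 and a median of 0.05, with Nkd1 at -0.21 (SE 0.12, unadjusted p = 0.0986). Other junction genes had 5 of 16 above 0 and a median of -0.03, with Cgnl1 at -0.19 (SE 0.12, unadjusted p = 0.125). The edgeR test called 0 genes of these lists after adjustment.

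Markers of other cells were read in the same libraries. Blood cell markers had 1 of 9 above 0 and a median of -0.73, with Alas2, the heme enzyme of red cells, at -1.06 (SE 0.46, edgeR unadjusted p = 0.0397). Their summed level ran from 129 to 198 CPM in scramble morphine and from 114 to 430 CPM in scramble saline libraries, where replicates 2 and 3 were highest, as they were for Tfrc. Ppbp, a platelet gene, was at 0 counts in 6 of the 12 libraries and left out. Astrocyte markers had 14 of 14 above 0 and a median of 0.19, with Gjb6 at 0.52 (SE 0.22, unadjusted p = 0.0384), and summed to between 4841 and 5689 CPM in scramble morphine and between 3592 and 5662 CPM in scramble saline. Fibroblast markers had 14 of 15 above 0 and a median of 0.44, with Slc6a13 at 0.71 (SE 0.27, unadjusted p = 0.0219), at sums of 228.6 to 391.7 CPM in scramble morphine and 203 to 343 CPM in scramble saline. Pericyte and smooth muscle markers had 8 of 17 above 0, a median of -0.07, Anpep at 0.39 (SE 0.26, unadjusted p = 0.156), and sums of 300 to 359 CPM in scramble morphine and 302 to 365 CPM in scramble saline. Oligodendrocyte markers had 7 of 8 above 0 and a median of 0.10, with Cldn11 at 0.26 (SE 0.16, unadjusted p = 0.12). Neuron markers had 5 of 10 above 0 and a median of 0.01, with Gad2 at -0.06 (SE 0.05, unadjusted p = 0.276), and microglia and macrophage markers 7 of 13 above 0 and a median of 0.01, with Lyve1 at 0.48 (SE 0.53, unadjusted p = 0.381). The part of these cell types in the members' values was not tested. The ribosomal RNA locus CT010467.1 took 2.38 to 3.04% of counts in scramble morphine and 3.58 to 5.63% in scramble saline libraries, without overlap. With that share as a covariate the members' median was -0.03, with 1 gene lower and 1 higher at an unadjusted edgeR p under 0.05. In that fit 3.52% of all genes passed in either direction. The share of the locus and the group cannot be told apart in these libraries.

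The comparison of knockdown morphine with scramble morphine asks how the genes stood with the knockdown AAV when both groups had morphine. Most of the 34 genes stood higher in knockdown morphine. By role, the median log2 fold change was 0.27 for receptors and their phosphatase, 0.23 for junction genes, 0.18 for transcription factors, 0.14 for transporters and 0.10 for surface genes. The log2 fold change lay above 0 for 30 of the 34 genes (88.2%), against 50.7% of all tested genes, and its median was 0.20, against 0.0040 over all genes. The 4 genes below 0 (11.8%, against 49.3% of all genes) were Egfl7, Itm2a, Mfsd2a and Ramp2. The edgeR test called 0 of the 34 and 0% of all genes at an adjusted p under 0.05. DESeq2 called 164 genes of the whole table and limma voom 0, in both cases with 0 of the 34. At an unadjusted p under 0.05, 10 of the 34 (29.4%) were higher, against 5.87% of all genes, and 0 were lower, against 6.17%, which makes 12% of all genes in either direction. Receptors gave 5 of the 10 (Flt1, Tie1, Ptprb, Eng and Adgrl4), transporters 2 (Slc2a1 and Slco1c1), surface genes 2 (Ly6c1 and Podxl) and junction genes 1 (Pecam1).

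The count of 10 depended on single libraries. It was 1 without knockdown morphine replicate 1, 6 without knockdown morphine replicate 3, 4 without scramble morphine replicate 4 and 15 without knockdown morphine replicate 2. In these fits 7.92, 8.74, 10.1 and 13.1% of all genes passed in either direction, in that order. The members' median was 0.12 without knockdown morphine replicate 1. With library totals as the only scaling, which moved the median of all genes to -0.06, 24 of the 34 genes lay above 0 with a median of 0.14. In that fit 1 of the 34 had an unadjusted p under 0.05, against 15.9% of all genes. The ribosomal RNA locus held 9.38, 6.79, 4.57 and 5.12% of counts in the knockdown morphine libraries and 2.38 to 3.04% in the scramble morphine libraries. With it as a covariate, 22 genes lay above 0, the median was 0.06, and 0 were higher and 1 lower at an unadjusted edgeR p under 0.05. In that fit 5.07% of all genes passed in either direction. The share of the locus did not overlap between these groups, so it cannot be told apart from the group here.

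**Figure D3:**
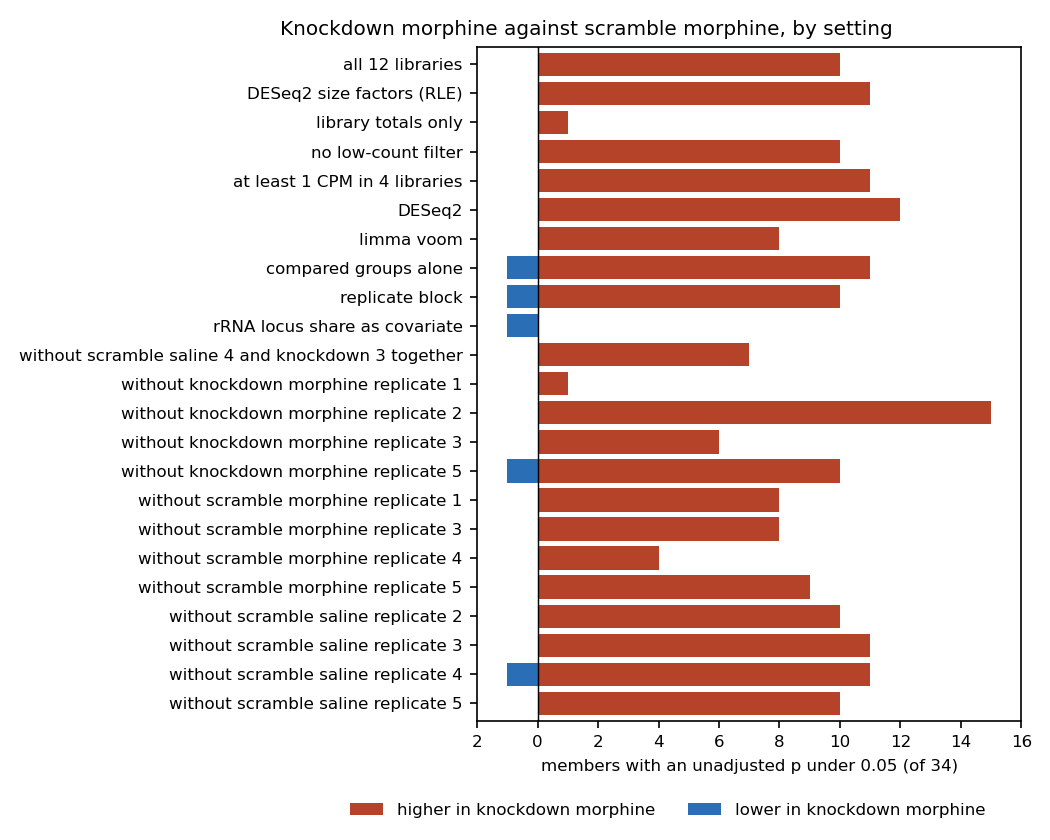
Number of the 34 genes with an unadjusted edgeR p under 0.05 between knockdown morphine and scramble morphine (higher to the right, lower to the left of 0), for all 12 libraries and each other setting, DESeq2 and limma voom rows with their own p. The count of 10 higher genes drops to 1 without knockdown morphine replicate 1 or with library totals only, and to 0 with the ribosomal RNA share as a covariate. That share did not overlap between these groups and cannot be told apart from them. Of all genes, 12% passed in either direction with all libraries and 7.92% without knockdown morphine replicate 1. With library totals only 15.9% passed, and with the covariate 5.07%.

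Of the junction genes, all 5 stood above 0. Pecam1 (CD31, an adhesion molecule between endothelial cells, ENSMUSG00000020717, chr11:106654217-106750628, minus strand) had 34.4, 23.5, 29.98 and 27.7 CPM in the knockdown morphine libraries, against 24.3, 22.3, 21.7 and 23.3 CPM in the scramble morphine libraries, where replicate 2 of the knockdown lay inside the scramble range. On the log2 scale the difference was 0.34 (SE 0.11), a fold of 1.26 (95% interval 1.07 to 1.495), with an edgeR unadjusted p = 0.0101 and an adjusted p = 0.324, the smallest p of the 34. Cldn5 had 50.7, 32.8, 31.8 and 26.7 CPM in the knockdown morphine libraries, against 35.3, 39.1, 26.7 and 33.9 CPM in the scramble morphine libraries. Replicate 1 was high and replicate 5 as low as the lowest scramble library, and the log2 fold change of 0.07 (SE 0.21, edgeR adjusted p = 0.932) was -0.16 without knockdown morphine replicate 1 and -0.0019 with library totals only.

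Of the 8 transporters, 7 stood above 0. Slc2a1 had 119, 106, 113 and 101 CPM in the knockdown morphine libraries, against 94.6, 93.1, 88.3 and 88.1 CPM in the scramble morphine libraries, with every knockdown library above every scramble library. This gave a log2 fold change of 0.27 (SE 0.10), a fold of 1.202 (95% interval 1.04 to 1.39), with an edgeR unadjusted p = 0.0153 and an adjusted p = 0.332. An antisense gene, Gm12868, overlaps an exon of Slc2a1, and whether counting used the strand is not given in the sources used here. Slco1c1 had 45.3, 40.8, 38.96 and 41.6 CPM in the knockdown morphine libraries, against 37.1, 38.6, 33.98 and 37.3 CPM in the scramble morphine libraries, again with no overlap, and a log2 fold change of 0.18 (SE 0.08, unadjusted p = 0.0318, edgeR adjusted p = 0.376). The same scramble morphine libraries were set against saline above, so a low value there enters both comparisons. Slco1a4 had 60.1, 47.2, 52.1 and 65.3 CPM in the knockdown morphine libraries, against 52.9, 52.5, 43.2 and 53.1 CPM in the scramble morphine libraries, a log2 fold change of 0.16 (SE 0.11, edgeR adjusted p = 0.604) with overlap. The value of Slco1a4 was 0.07 without knockdown morphine replicate 5, 0.09 without scramble morphine replicate 4 and 0.09 with library totals only. Slco1c1 was at 0.11 with library totals only and at 0.03 with the ribosomal RNA covariate, under which Slc2a1 was at 0.16.

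Tfrc had 69.8, 84.5, 81.5 and 72.3 CPM in the knockdown morphine libraries, against 79.8, 70.98, 70.8 and 69.9 CPM in the scramble morphine libraries. The groups overlapped, and the fold was 1.06 (95% interval 0.9395 to 1.19, edgeR adjusted p = 0.734). Leaving out single libraries gave log2 fold changes of 0.03 (without knockdown morphine replicate 2) to 0.13 (without scramble morphine replicate 1). Of the 20 iron genes, 11 stood above 0 with a median of 0.04, 3 were higher and 1 lower at an unadjusted p under 0.05, and the smallest p was that of Ftl1, the ferritin light chain, at -0.23 (SE 0.09, edgeR unadjusted p = 0.0191, adjusted p = 0.347). Of the 26 other transport genes, 16 stood above 0 with a median of 0.01 and 4 were higher at an unadjusted p under 0.05.

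Of the 9 receptors and their phosphatase, 8 stood above 0, with a median of 0.27. Flt1 (ENSMUSG00000029648, chr5:147561604-147726011, minus strand) had 87.9, 66.6, 81.2 and 76.7 CPM in the knockdown morphine libraries, against 64.98, 66.7, 65.3 and 70.3 CPM in the scramble morphine libraries, a log2 fold change of 0.23 (SE 0.10, edgeR unadjusted p = 0.0312, adjusted p = 0.373). Tie1 (ENSMUSG00000033191, chr4:118471191-118490061, minus strand) had 24.8, 16.4, 22.5 and 18.8 CPM in the knockdown morphine libraries, against 18.6, 17.5, 15.3 and 17.2 CPM in the scramble morphine libraries, a log2 fold change of 0.27 (SE 0.12, edgeR unadjusted p = 0.03799, adjusted p = 0.388). Replicate 2 of the knockdown lay within the scramble range for both, while replicates 1, 3 and 5 lay above it. Ptprb, which removes phosphate from Tek and VE-cadherin (ENSMUSG00000020154, chr10:116275523-116389535, plus strand), had 71.9, 46.4, 64.97 and 72.7 CPM in the knockdown morphine libraries, against 52.1, 49.9, 50.2 and 53.8 CPM in the scramble morphine libraries. Replicate 2 was below every scramble library and the other 3 above all of them, at a log2 fold change of 0.31 (SE 0.12, edgeR unadjusted p = 0.0171, adjusted p = 0.3397). Tie1 was at 0.16 without knockdown morphine replicate 1, and with the ribosomal RNA covariate Tie1 was at 0.08 and Flt1 at 0.11.

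Eng (endoglin, a co-receptor of BMP signals, ENSMUSG00000026814, chr2:32646595-32682669, plus strand) had 29.1, 25.5, 26.3 and 21.9 CPM in the knockdown morphine libraries, against 20.3, 22.04, 21.5 and 23.9 CPM in the scramble morphine libraries, where replicate 5 of the knockdown lay inside the scramble range. The fitted log2 difference was 0.23 (SE 0.09, edgeR unadjusted p = 0.0252, adjusted p = 0.362), or 0.03 with the ribosomal RNA covariate, and an exon of Fpgs on the other strand overlaps the gene. Adgrl4 (ELTD1, an adhesion receptor of vessels, ENSMUSG00000039167, chr3:151437887-151545086, plus strand) had 31.9, 23.00, 21.7 and 22.5 CPM in the knockdown morphine libraries, against 20.4, 21.6, 18.95 and 19.4 CPM in the scramble morphine libraries. No knockdown library overlapped the scramble group, although replicate 3, at 21.7 CPM, lay barely above scramble replicate 3, and replicate 1 lay far above. The fold change on the log2 scale was 0.30 (SE 0.13, edgeR unadjusted p = 0.0379, adjusted p = 0.388), 0.15 without that library and -0.09 with the ribosomal RNA share as a covariate.

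Among surface genes, Ly6c1 (an endothelial surface protein whose close copy Ly6c2 makes its counts uncertain, ENSMUSG00000079018, chr15:75044018-75048830, minus strand) had 43.8, 34.1, 38.3 and 30.8 CPM in the knockdown morphine libraries, against 31.7, 31.95, 22.9 and 28.5 CPM in the scramble morphine libraries. The fit put the log2 fold change at 0.35 (SE 0.14, edgeR unadjusted p = 0.0217, adjusted p = 0.353), with replicate 5 of the knockdown inside the scramble range. Podxl had 80.4, 52.01, 67.5 and 49.6 CPM in the knockdown morphine libraries, against 48.5, 45.3, 48.5 and 47.7 CPM in the scramble morphine libraries. The groups did not overlap, and the knockdown values were widely spread while the scramble values lay close together. In the edgeR fit the log2 difference came to 0.39 (SE 0.16, edgeR unadjusted p = 0.0291, adjusted p = 0.369). It was 0.24 without knockdown morphine replicate 1 and 0.12 with the ribosomal RNA covariate, under which Ly6c1 was at 0.14. In all, 5 of the 34 genes (14.7%) lay higher in every knockdown morphine library than in every scramble morphine library, against 2.59% of all genes, and 0 lay lower, against 3.26%. They were Adgrl4, Podxl, Slc2a1, Slco1c1 and, named after its values were seen, Vwf.

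**Figure D4:**
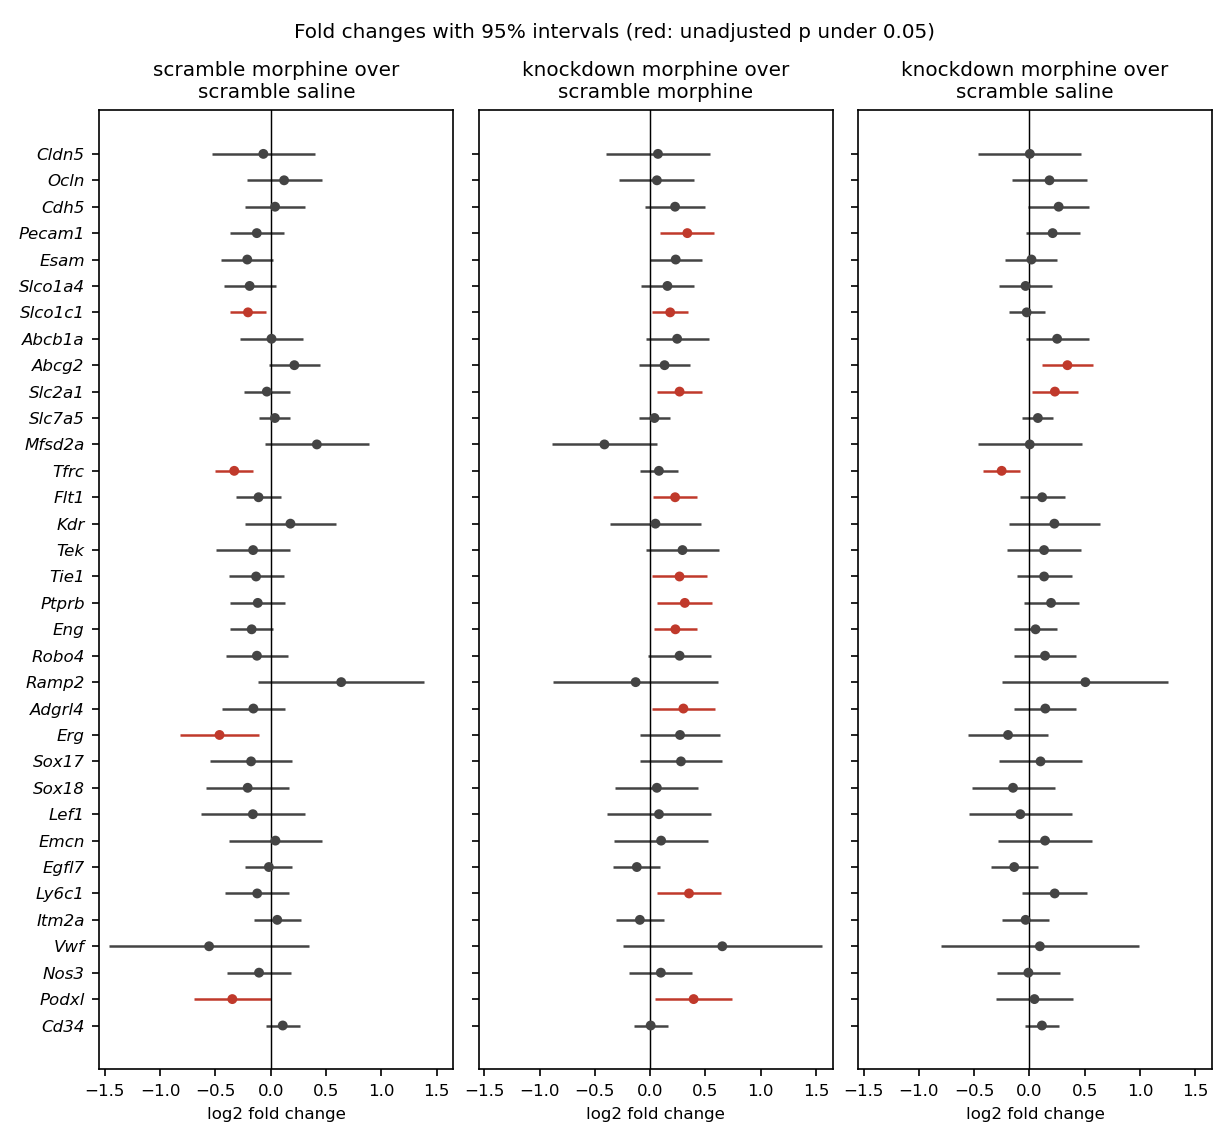
Log2 fold change of each of the 34 genes with its 95% interval in the 3 comparisons, red where the unadjusted edgeR p is under 0.05. In the middle panel 30 of 34 points lie right of 0 and 10 are red, in the left panel 23 lie left of 0 and 4 are red, and in the right panel 25 lie right of 0 and 3 are red. The comparisons share groups, so the panels are not independent.

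Several lists outside the group stood above 0 in this comparison as well. Other endothelial genes had 27 of 35 above 0, a median of 0.17 on the log2 scale and 8 higher at an unadjusted p under 0.05, with Adgrf5, an adhesion receptor of capillaries, at 0.49 (SE 0.10, edgeR unadjusted p = 0.000286, adjusted p = 0.240). Genes of vesicles, adhesion and endothelial activation had 16 of 17 above 0 and a median of 0.22, with the lipopolysaccharide co-receptor Cd14 at 0.59 (SE 0.25, unadjusted p = 0.0286). Partners of the VEGF and angiopoietin receptors had 17 of 28 above 0 and a median of 0.10, with Notch1 at 0.33 (SE 0.10, unadjusted p = 0.00414, adjusted p = 0.276). Wnt genes had 13 of 22 above 0 and a median of 0.09, with the Wnt-induced receptor Tnfrsf19 at 0.35 (SE 0.11, unadjusted p = 0.00640). Other junction genes had 10 of 16 above 0 and a median of 0.10, with Cgnl1, paracingulin, at 0.36 (SE 0.12, unadjusted p = 0.00709). After adjustment over all genes, edgeR called 0 genes of these lists.

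Pericyte and smooth muscle markers lay above 0 in 17 of 17 genes, with a median of 0.25 and 5 at an unadjusted p under 0.05, among them Myl9 at 0.50 (SE 0.15, edgeR unadjusted p = 0.00495, adjusted p = 0.289). Their summed level ran from 319 to 475 CPM in knockdown morphine and from 300 to 359 CPM in scramble morphine libraries, and was highest in knockdown morphine replicate 1, as it was for the 34 genes. Oligodendrocyte markers lay below 0 in 8 of 8 genes, with a median of -0.32 and Opalin at -0.60 (SE 0.23, unadjusted p = 0.0201), at sums of 1191 to 2035 CPM in knockdown morphine and 1837 to 2512 CPM in scramble morphine. Fibroblast markers had 14 of 15 above 0 and a median of 0.20, with Pdgfra at 0.20 (SE 0.06, unadjusted p = 0.00473), and summed to 334 to 464 CPM in knockdown morphine and 228.6 to 391.7 CPM in scramble morphine. Astrocyte markers had 4 of 14 above 0 with a median of -0.10 and Aldh1l1 at 0.21 (SE 0.08, unadjusted p = 0.0263). Microglia and macrophage markers had 4 of 13 above 0 with a median of -0.17, but Mrc1, a gene of macrophages beside vessels, stood at 1.01 (SE 0.19, unadjusted p = 1e-04, adjusted p = 0.239). Blood markers had 9 of 9 above 0 with a median of 0.17, the smallest p being that of S100a8 at 1.28 (SE 1.26, unadjusted p = 0.330), at sums of 134 to 212 CPM in knockdown morphine and 129 to 198 CPM in scramble morphine. Neuron markers had 5 of 10 above 0 and a median of -0.0040, with Neurod6 at -0.44 (SE 0.15, unadjusted p = 0.0118). The part of these cell types in the members' values was not tested.

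**Figure D5:**
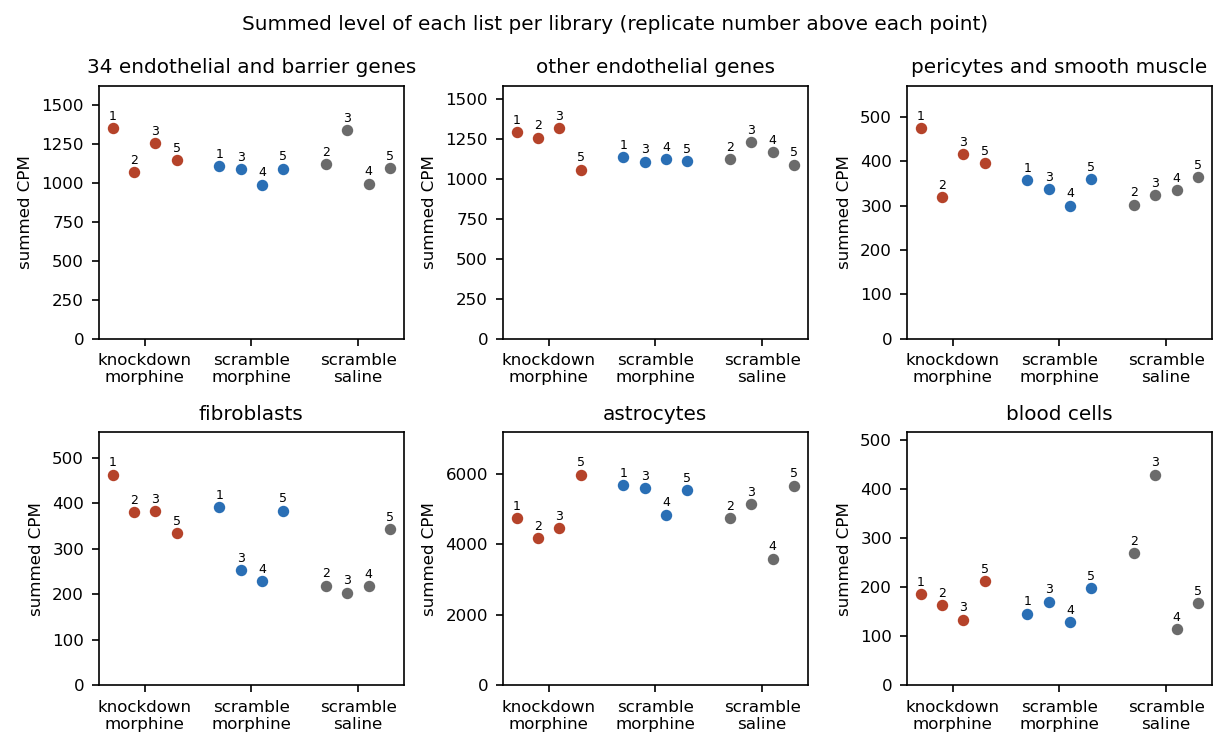
Summed CPM per library of the 34 genes and of 5 marker lists, by group, with the replicate number above each point and axes that start at 0. The 34 genes and the pericyte and smooth muscle markers are both highest in knockdown morphine replicate 1 (1350.5 and 475 CPM), while blood markers are highest in scramble saline replicate 3 (430 CPM).

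Summed over the 34 genes, the level was 1204 ± 124 CPM in knockdown morphine, 1068 ± 53.9 CPM in scramble morphine and 1136 ± 145 CPM in scramble saline libraries (SD, n = 4 each). The transporters held the largest part of it, at 479 ± 19.0 CPM in knockdown morphine, 437 ± 16.5 CPM in scramble morphine and 460 ± 51.4 CPM in scramble saline. Receptors summed to 277 ± 39.5 CPM in knockdown morphine, 237 ± 17.2 CPM in scramble morphine and 247 ± 24.3 CPM in scramble saline, and transcription factors to 29.2 ± 5.28 CPM in knockdown morphine, 25.6 ± 4.37 CPM in scramble morphine and 30.5 ± 3.27 CPM in scramble saline. In each of these sums the scramble morphine mean was the lowest of the 3 and the ranges of the groups overlapped, except for the transporters, whose knockdown morphine values (452 to 493 CPM) lay above all scramble morphine values (415 to 450 CPM).

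The third comparison set knockdown morphine against scramble saline, where virus and drug differ together. Of the 34 genes, 25 stood above 0 (73.5%, against 49.6% of all genes) and 9 below (26.5%, against 50.4%). The median of the log2 fold changes was 0.11, against -0.0019 over all genes. The edgeR test called 0 of the 34 and 0.0137% of all genes at an adjusted p under 0.05. At an unadjusted p under 0.05, Abcg2 and Slc2a1 were higher (5.88%, against 4.97% of all genes) and Tfrc was lower (2.94%, against 4.37%), which gives 8.82% in either direction, against 9.35% of all genes. DESeq2 called 147 genes of the whole table and limma voom 0, in both cases with 0 of the 34. No gene of the 34 separated these groups without overlap, while 2.18% of all genes lay higher and 2.16% lower in this way. The count of 3 was 8 without knockdown morphine replicate 2 or scramble saline replicate 3, where 10.6 and 7.11% of all genes passed. With library totals only it was 1 higher and 1 lower, against 10.9% of all genes, with the median of all genes at -0.05. The members' median was 0.04 without knockdown morphine replicate 1 or scramble saline replicate 4, 0.16 without knockdown morphine replicate 2 and 0.17 without scramble saline replicate 3. With the ribosomal RNA covariate it was 0.04, with 1 gene higher and 1 lower at an unadjusted p under 0.05. In that fit 6.35% of all genes passed in either direction.

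Tfrc had 69.8, 84.5, 81.5 and 72.3 CPM in the knockdown morphine libraries, against 99.7, 97.5, 86.2 and 83.2 CPM in the scramble saline libraries. Knockdown replicate 2 passed the lowest saline library, replicate 5, and the other 3 knockdown libraries lay below all saline libraries. On the log2 scale the difference was -0.25 (SE 0.08), a fold of 0.8402 (95% interval 0.747 to 0.945), with an edgeR unadjusted p = 0.00647 and an adjusted p = 0.369. Both comparisons with saline use the same 4 saline libraries, so the Tfrc values of knockdown morphine and scramble morphine are not separate evidence of a lower level. Of the 20 iron genes, 11 stood above 0 with a median of 0.04, and Cp, the ferroxidase ceruloplasmin, had the smallest p at 0.73 (SE 0.19, unadjusted p = 0.00210, adjusted p = 0.319).

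Abcg2 had 29.4, 21.4, 25.1 and 23.7 CPM in the knockdown morphine libraries, against 17.1, 23.1, 18.8 and 19.5 CPM in the scramble saline libraries, where saline replicate 3 alone reached into the knockdown range. This gave a log2 fold change of 0.34 (SE 0.11), a fold of 1.27 (95% interval 1.08 to 1.49), with an edgeR unadjusted p = 0.00675 and an adjusted p = 0.372. Slc2a1 had 119, 106, 113 and 101 CPM in the knockdown morphine libraries, against 87.4, 118, 81.2 and 86.8 CPM in the scramble saline libraries. All but saline replicate 3 lay below the knockdown values, at a log2 fold change of 0.23 (SE 0.10, edgeR unadjusted p = 0.0319, adjusted p = 0.485), or 0.36 without that library. Abcb1a, the efflux pump P-glycoprotein, had 56.1, 45.5, 63.6 and 58.5 CPM in the knockdown morphine libraries, against 46.7, 56.3, 36.9 and 48.3 CPM in the scramble saline libraries, with overlap. The fitted log2 difference was 0.25 (SE 0.13, edgeR unadjusted p = 0.0797, adjusted p = 0.594), and its counts are uncertain because of the close copy Abcb1b. It was 0.15 without scramble saline replicate 4 and 0.08 without that library and knockdown morphine replicate 3. Among other transport genes, 13 of 26 stood above 0 with a median of 0.01 and 6 were higher at an unadjusted p under 0.05, with the efflux pump Abcc4 at 0.47 (SE 0.10, unadjusted p = 0.000212, adjusted p = 0.187).

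All 5 junction genes stood above 0. Cdh5, VE-cadherin of the adherens junction, had 23.2, 16.7, 21.7 and 19.9 CPM in the knockdown morphine libraries, 18.02, 15.5, 14.6 and 21.6 CPM in the scramble morphine libraries and 15.7, 17.3, 15.9 and 18.99 CPM in the scramble saline libraries. Its log2 fold change between knockdown morphine and scramble saline was 0.26 (SE 0.13, edgeR unadjusted p = 0.0582, adjusted p = 0.554), and 3 of the 4 knockdown libraries lay above all saline libraries. Pecam1 had 34.4, 23.5, 29.98 and 27.7 CPM in the knockdown morphine libraries, against 21.7, 29.4, 25.8 and 23.1 CPM in the scramble saline libraries, a log2 fold change of 0.21 (SE 0.11, edgeR adjusted p = 0.608), or 0.11 without knockdown morphine replicate 1 and 0.30 without scramble saline replicate 3. Cldn5 stood at 0.0033 (SE 0.21, edgeR adjusted p = 0.998), and at -0.0466 with library totals only. Slco1a4 stood at -0.04 (SE 0.11, edgeR adjusted p = 0.958), and both signs turned when single libraries were left out. The 9 receptors and their phosphatase all stood above 0 with a median of 0.14, and 3 of the 4 transcription factors stood below 0.

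Around the group, fibroblast markers stood furthest from 0 in this comparison, with 15 of 15 above 0, a median of 0.80 on the log2 scale and 11 at an unadjusted p under 0.05, Col1a2 at 0.82 (SE 0.20, edgeR unadjusted p = 0.00172, adjusted p = 0.309), and sums of 334 to 464 CPM in knockdown morphine against 203 to 343 CPM in scramble saline. Pericyte and smooth muscle markers had 15 of 17 above 0, a median of 0.23 and 6 at an unadjusted p under 0.05, with Myl9 at 0.72 (SE 0.15, unadjusted p = 0.000286, adjusted p = 0.214). Other endothelial genes had 27 of 35 above 0 and a median of 0.16, with Foxc1 at 0.66 (SE 0.21, unadjusted p = 0.00621). Vesicle and activation genes had 10 of 17 above 0 and a median of 0.10, with the caveolar coat gene Cavin2 at 0.44 (SE 0.11, unadjusted p = 0.000745, adjusted p = 0.290). Partners of the VEGF and angiopoietin receptors had 18 of 28 above 0 and a median of 0.11, with Notch1 at 0.36 (SE 0.10, unadjusted p = 0.00184). Wnt genes had 16 of 22 above 0 and a median of 0.15, with 6 higher and 2 lower at an unadjusted p under 0.05, and Reck, a co-receptor for the Wnt signal to brain vessels, at 0.31 (SE 0.09, unadjusted p = 0.00461). Other junction genes had 10 of 16 above 0 and a median of 0.10, with the catenin Ctnna1 at 0.27 (SE 0.11, unadjusted p = 0.0202). Blood markers had 2 of 9 above 0 and a median of -0.49, with Hbb-bs at -0.73 (SE 0.38, unadjusted p = 0.0893). Astrocyte markers had 11 of 14 above 0 and a median of 0.10, with Aldh1l1 at 0.36 (SE 0.08, unadjusted p = 0.000742, adjusted p = 0.290). Microglia and macrophage markers had 4 of 13 above 0 and a median of -0.16, with Mrc1 at 1.16 (SE 0.19, unadjusted p = 2.5e-05, adjusted p = 0.107). Oligodendrocyte markers had 1 of 8 above 0 and a median of -0.25, with Mag at -0.45 (SE 0.19, unadjusted p = 0.0404), and neuron markers 5 of 10 above 0 and a median of -0.0057, with Neurod6 at -0.40 (SE 0.15, unadjusted p = 0.0187). The edgeR test called 0 genes of these lists after adjustment, and their part in the members' values was not tested.

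The remaining members had no unadjusted p under 0.05 in any comparison, and their levels are given as the mean ± SD of 4 libraries. Ocln, the tight junction protein occludin, had 8.06 ± 1.24 CPM in knockdown morphine, 7.73 ± 1.03 in scramble morphine and 7.12 ± 1.22 in scramble saline. Slc7a5, the carrier of large neutral amino acids, had the smallest ratio of highest to lowest library of the 34, at 1.236. Its level was 97.3 ± 7.45 CPM in knockdown morphine, 94.7 ± 3.796 in scramble morphine and 92.3 ± 5.38 in scramble saline. Mfsd2a had 16.3 ± 4.97 CPM in knockdown morphine, 21.7 ± 0.756 in scramble morphine and 16.3 ± 4.53 in scramble saline, with the wide spread in the groups other than scramble morphine.

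Kdr, VEGF receptor 2, had 13.02 ± 2.35 CPM in knockdown morphine, 12.6 ± 2.31 in scramble morphine and 11.2 ± 3.004 in scramble saline. Tek had 22.3 ± 4.99 CPM in knockdown morphine, 18.2 ± 2.29 in scramble morphine and 20.4 ± 2.77 in scramble saline, and Robo4, a vessel-stabilising roundabout receptor, had 9.13 ± 0.956 CPM in knockdown morphine, 7.58 ± 0.999 in scramble morphine and 8.28 ± 0.933 in scramble saline. Kdr departed from the other growth receptors in scramble saline replicate 3, where it was lowest of the 12 libraries at 7.42 CPM while Flt1 stood at 85.7 CPM, its second highest value. Ramp2, a partner of the adrenomedullin receptor that shares exons on its own strand with Vps25, split into high and low libraries in every group given morphine. It had 22.5, 13.1, 29.2 and 12.3 CPM in knockdown morphine, 28.4, 13.9, 13.4 and 28.5 CPM in scramble morphine and 15.2, 16.4, 11.5 and 11.2 CPM in scramble saline libraries, and a read of the shared part could be counted for either gene.

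Some members described in 1 comparison above had these levels in the groups left out there. Flt1 had 72.2 ± 9.99 CPM in scramble saline, Tie1 18.8 ± 1.26, Ptprb 55.9 ± 5.98, Eng 24.7 ± 1.68, Adgrl4 22.4 ± 3.91 and Ly6c1 31.4 ± 5.46, and in each the scramble saline mean lay between those of knockdown morphine and scramble morphine. Erg had 6.899 ± 1.85 CPM and Esam 15.97 ± 1.58 CPM in knockdown morphine, and Abcb1a had 47.2 ± 6.46 CPM in scramble morphine, close to its saline mean of 47.1 ± 7.96 CPM. Erg had its highest value of the 12 libraries, 9.41 CPM, in knockdown morphine replicate 1, and the other 3 knockdown libraries lay below every scramble saline library.

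Of the transcription factors, Sox17 had 10.9 ± 2.48 CPM in knockdown morphine, 8.95 ± 1.85 in scramble morphine and 10.1 ± 1.19 in scramble saline, and its relative Sox18 had 6.21 ± 1.21 CPM in knockdown morphine, 5.94 ± 1.15 in scramble morphine and 6.88 ± 0.8797 in scramble saline. Both drive arterial and endothelial programmes. Lef1, a nuclear partner of beta-catenin in Wnt signalling, had 5.25 ± 0.6603 CPM in knockdown morphine, 4.96 ± 1.01 in scramble morphine and 5.57 ± 1.67 in scramble saline. Of the surface genes, Emcn (endomucin, of veins and capillaries) had 4.34 ± 0.873 CPM in knockdown morphine, 4.05 ± 0.568 in scramble morphine and 3.94 ± 0.828 in scramble saline. Egfl7, a secreted endothelial factor that overlaps the gene of miR-126 and Agpat2, had 26.1 ± 2.83 CPM in knockdown morphine, 28.3 ± 2.71 in scramble morphine and 28.7 ± 2.99 in scramble saline. Itm2a, a membrane protein enriched in brain endothelium, had 41.8 ± 3.73 CPM in knockdown morphine, 44.6 ± 4.53 in scramble morphine and 42.8 ± 5.55 in scramble saline. Nos3, the endothelial nitric oxide synthase, whose exons overlap Atg9b on the other strand, had 14.9 ± 1.99 CPM in knockdown morphine, 13.9 ± 1.69 in scramble morphine and 15.01 ± 2.54 in scramble saline. Cd34, a sialomucin of endothelium and progenitor cells, had 73.03 ± 5.57 CPM in knockdown morphine, 72.8 ± 1.41 in scramble morphine and 67.6 ± 6.22 in scramble saline. Exons of 9 of the 34 genes overlap another gene, and these 9 are uncertain for that reason.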

How the data were processed

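Bulk RNA of mouse medial prefrontal cortex was sequenced in 12 libraries, 4 for each of 3 groups, with groups and replicate numbers taken from the labels. The deposited table holds raw counts of reads per gene for each library, made by the authors. Per the labels' protocols, polyadenylated RNA was captured with oligo(dT) beads, strand was marked with dUTP and reads were paired-end. Per the submitters' processing notes, the build was mm10 and the tools included cutadapt 1.9, HISAT2 2.0.4 and StringTie 1.3.4d. The counting tool, its strand setting and the annotation release are not stated there or in the labels, so exon overlaps and gene positions come from GENCODE M21. Of 55401 IDs, 55141 matched a symbol, and unmatched IDs held 0.0126 to 0.0275% of counts. The deposited table had 0 columns of other samples.

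Genes that passed edgeR's filter (minimum count 10) entered a single quasi-likelihood fit of all 12 libraries with TMM scaling (R 4.3.3, edgeR 4.0.16), with 9 residual degrees of freedom and Benjamini-Hochberg adjustment at 0.05 over the 21958 genes. The fit was run on simulated counts with the same spread for all genes and no differences between libraries beyond their totals. That run checks the code only, not the precision in these libraries. Alternatives were other scalings and filters, DESeq2 1.42.0, limma 3.58.1 voom, only the groups compared, a replicate block and each library left out. A ribosomal RNA covariate and the removal of scramble saline replicate 4 with knockdown morphine replicate 3, a pair doubted in an earlier analysis of these data, were among them, and all were repeated for the counts at an unadjusted p under 0.05, a measure chosen after seeing the data.

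The members, the 16 other lists and the alternatives were chosen with earlier results of these data known. Test values are given for Tfrc, Cldn5, Slc2a1, Slco1a4, each member with an unadjusted p under 0.05 and, below 6 of these, those with the next smallest p, and for the gene of smallest p in each other list, except 1 that is not reported here. Genes outside that rule are named as such in the text. Listed genes left out were Troy, Sdpr and Gpr116, which are older symbols, and Selp, Ppbp, Folr1 and Tmem212, at 0 counts in 7, 6, 6 and 11 libraries. Choroid plexus and ependyma markers had medians of 0.57 between scramble morphine and scramble saline, -0.24 between knockdown morphine and scramble morphine and 0.17 between knockdown morphine and scramble saline, over 6 genes.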

Additional observations from a re-analysis of the deposited data

Results flagged for a closer look

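In 102 sets of 4 libraries (34 genes in 3 groups), 5 held a library far from the other 3, by a gap, as a share of the set's range, above Dixon's 95% critical value. Chance flags about 1 in 20 such sets. Adgrl4 was at 31.87 CPM in knockdown morphine replicate 1, while the other knockdown morphine libraries lay between 21.65 and 23.00 CPM. Tfrc was at 79.82 CPM in scramble morphine replicate 1, while the others of that group lay between 69.86 and 70.98 CPM. Slco1a4 was at 43.15 CPM in scramble morphine replicate 4, below the others at 52.54 to 53.11 CPM, and Tek was at 14.79 CPM in the same library, below the others at 19.17 to 19.64 CPM. Slc2a1 was at 118 CPM in scramble saline replicate 3, above the others at 81.17 to 87.36 CPM. No cause was tested.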

How the results depend on the processing

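The edgeR test called 0 of the 34 genes after adjustment under every alternative run in the 3 comparisons. Of 660 recomputed values of the genes named in a comparison, 638 kept their direction and side of the threshold and 22 reversed, most of them for Cldn5. The lowest count of a member in a library was 126. Counting depth and the spread between 4 libraries were not separated as limits of the precision. The cause was not tested for any of these changes.

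Between scramble morphine and scramble saline, 0 genes of the whole table were called with all libraries, 4 by DESeq2 and 1 with the compared groups alone. The number of members at an unadjusted edgeR p under 0.05, 4 in the main analysis and all lower, was 2 with the ribosomal RNA covariate (1 higher and 1 lower). In that fit 3.52% of all genes passed in either direction. Under that covariate Cldn5 was at 0.1816 and Slc2a1 at 0.0154. Leaving out single libraries gave -0.1725 to 0.1077 for Cldn5 and -0.1005 to 0.0991 for Slc2a1.

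Between knockdown morphine and scramble morphine, 0 genes were called, against 2 with no low-count filter, 164 by DESeq2, 5 without scramble saline 4 and knockdown 3 together, and 0 to 375 when single libraries were left out (375 without knockdown morphine replicate 5). The count of 10 members, all higher, was 1 higher with library totals only and 0 higher and 1 lower with the ribosomal RNA covariate. In these 2 fits 15.9 and 5.07% of all genes passed. With single libraries left out the count was 1 to 15 in either direction, against 7.92 to 18.5% of all genes. Cldn5 was at -0.0019 with library totals only, -0.4768 with the covariate and -0.1566 to 0.1814 with single libraries left out, and Adgrl4 at -0.0931 with the covariate.

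Between knockdown morphine and scramble saline, 3 genes were called, against 5 with no low-count filter or the compared groups alone, 147 by DESeq2, 0 with library totals only, limma voom, the covariate, or without scramble saline 4 and knockdown 3 together, and 0 to 55 with single libraries left out (55 without knockdown morphine replicate 5 and 7 without scramble morphine replicate 4). The count of 3 members was 2 to 8 with single libraries left out, fits in which 6.1 to 15.2% of all genes passed. Cldn5 was at -0.0466 with library totals only, -0.0071 with no filter, -0.0219 with limma voom, -0.2952 with the covariate, -0.0232 without both libraries and -0.2221 to 0.1746 with single libraries left out. Slco1a4 ran from -0.1195 to 0.0520 with single libraries left out.

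The correlations do not settle whether replicate numbers pair the libraries. Deviations of same-numbered libraries correlated at -0.0194 to 0.1265, and not every library correlated best with its own number. Knockdown morphine replicate 1 correlated best with scramble morphine replicate 1 (0.1265). Knockdown morphine replicate 5 did so with replicate 5 of scramble morphine (0.0856) and of scramble saline (0.1124). Replicate 3 of knockdown morphine instead correlated best with scramble saline replicate 4 (0.1211). With the replicate block, 1 gene was called between scramble morphine and scramble saline, 2 between knockdown morphine and scramble morphine and 0 between knockdown morphine and scramble saline. The block moved the share of all genes at an unadjusted edgeR p under 0.05 from 3.48 to 6.41%, 12 to 16.5% and 9.35 to 10.4%, in that order. Members at an unadjusted p under 0.05 numbered 13 (1 higher and 12 lower), 11 (10 higher and 1 lower) and 6 (2 higher and 4 lower) in the same comparisons, and Cldn5 stood at -0.0418 in the comparison of knockdown morphine with scramble morphine and at -0.1757 in that with scramble saline.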
